A study of Mus musculus with 4 samples.

Results

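The 10 genes described here take part in the signal from the cytokine TNF to the transcription factor NF-kB and in its feedback. They are the ligand Tnf, its receptors Tnfrsf1a and Tnfrsf1b, the receptor adaptor Traf1, and the NF-kB subunits Nfkb1 and Rel. The others are the inhibitors Nfkbia and Tnfaip3, the nuclear IkB protein Nfkbiz and the mRNA decay factor Zfp36. They were taken by symbol from the 31053 genes of the count matrices, and each symbol matched 1 row. The question was how far their levels moved with the way the tissue was dissociated and how far with injury, in which immune cells.

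TNF is a cytokine that macrophages, microglia, neutrophils and lymphocytes can release within hours of a stimulus. Binding to its receptors activates the kinases that destroy the inhibitor encoded by Nfkbia, so that NF-kB dimers enter the nucleus and switch on genes of inflammation. Several of those genes encode brakes on the same pathway, so their transcripts are often read as a sign that the pathway has been active. In the injured spinal cord TNF is among the first cytokines made, and resident microglia and infiltrating leukocytes are both known sources.

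Living CD45+ leukocytes were sorted from 8 mm of spinal cord around the lesion of 3-month-old mice on a C57BL/6 background and sequenced on the 10x droplet platform, which counts transcripts at their 3′ ends as unique molecular identifiers (UMIs). The 30 mice, of both sexes, were in 3 groups, and how many mice went into each library is not given in the sources used here. The labels call the cords of sham and shamActD healthy and name no operation there. By the study's text, mice of the library sham had the thoracic laminectomy without contusion and their cords were dissociated by the standard protocol. Mice of shamActD had the same operation by that text, and mice of 3dpi and 14dpi had a contusion 3 or 14 days earlier. In these last 3 libraries the transcription blocker actinomycin D was present by the study's text, at 45 µM in the digestion and 3 µM in the cold steps. The labels name this protocol, as Act-seq, for shamActD only. On the study's account sham against shamActD compares dissociation protocols, and 3dpi or 14dpi against shamActD compares injured with uninjured cord under the same protocol. All mice received an analgesic, an antibiotic and saline after surgery. There was 1 library per condition, so no difference could be set against a spread between animals, no test was made, and every interval below is an exact 95% interval that covers counting error only.

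The 4 libraries held 2439 to 11631 barcodes, of which 2135 (shamActD) to 9078 (14dpi) cells were kept, with medians of 7426 to 9672 UMIs per cell. Ptprc, which encodes CD45, had a UMI in 84.1% to 94.8% of the cells kept. Pairs of libraries shared 3 to 36 barcodes, at most 0.697% of the smaller library. The matrices of sham and 3dpi carried another software version than those of shamActD and 14dpi, so dissociation protocol and version cannot be told apart in sham against shamActD, nor injury and version in 3dpi against shamActD. Cells were clustered without the 10 genes, and clusters were named from marker genes, so the names are rebuilt and may differ from those of the study. Levels are shares scaled to 1000000 UMIs (CPM) of the UMIs summed over the cells of a class in a library. They were compared for 1 gene between libraries and not between genes. In CPM of whole classes, fewer cells in a state and less RNA per cell cannot be told apart.

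Sequence around the start of the genes gives the context for the levels that follow. NF-kB binds a consensus of 10 bases, and its name is used here for the pattern with purines and pyrimidines at the fixed places. RefSeq (GRCm38.p6, the build mm10 of the matrices) had promoter entries, from 250 bases before to 50 bases after the start, for 8 of the 10 genes, and none was found for Nfkbiz and Nfkb1. The consensus was searched on both strands and was present for 3 of the 8 genes, Tnfaip3, Nfkbia and Rel, and in 8.46% of 32851 promoters of the same length. That share is per promoter, not per gene, as the promoters belong to 27025 symbols. Tnfaip3 had another entry, chr10:19011914-19012213, without a match. In the Tnfaip3 entry with matches the consensus lay at -125 to -116 and at -12 to -3 from the start. In Nfkbia it lay at -29 to -20, and in Rel at -92 to -83 and -91 to -82, which overlap. A match is a stretch of letters and not a measured site. The 250 bases before the start of these 3 genes are shown with the matches in capitals.
Tnfaip3, chr10:19015411-19015660, minus strand: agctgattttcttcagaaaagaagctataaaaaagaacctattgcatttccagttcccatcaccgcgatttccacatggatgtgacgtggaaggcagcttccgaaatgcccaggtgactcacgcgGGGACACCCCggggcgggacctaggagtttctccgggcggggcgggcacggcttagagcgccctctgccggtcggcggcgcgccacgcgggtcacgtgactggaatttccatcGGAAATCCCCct
Nfkbia, chr12:55492648-55492897, minus strand: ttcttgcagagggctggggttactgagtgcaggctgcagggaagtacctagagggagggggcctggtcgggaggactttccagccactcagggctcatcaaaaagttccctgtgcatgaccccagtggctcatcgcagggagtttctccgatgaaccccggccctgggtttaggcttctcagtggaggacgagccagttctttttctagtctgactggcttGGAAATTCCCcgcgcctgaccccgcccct
Rel, chr11:23770970-23771219, minus strand: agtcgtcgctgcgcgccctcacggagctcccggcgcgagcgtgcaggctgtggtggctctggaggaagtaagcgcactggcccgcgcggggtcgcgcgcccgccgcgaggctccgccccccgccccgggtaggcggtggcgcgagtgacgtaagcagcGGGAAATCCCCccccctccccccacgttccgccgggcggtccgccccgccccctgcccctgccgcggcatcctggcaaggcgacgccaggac

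The protein encoded by Zfp36, tristetraprolin, binds AU-rich elements near the 3′ end of short-lived transcripts and speeds their decay. The nonamer TTATTTATT, the core of such elements, was searched on the sense strand of the 3′ end that follows the coding part in the GENCODE transcript of the genes. Counts are given for 4 members, and nothing is to be read from them about the others. It occurred 5 times in the 764 bases of Tnf, and once each in Nfkbia (512 bases), Zfp36 itself (774 bases) and Rel (5418 bases). It was found in 7.59% of 20918 genes, and 1.86% held it more than once, with no account taken of length. Windows of 30 bases around it are shown with the nonamers in capitals, and that of Tnf holds 4 overlapping copies.
Tnf: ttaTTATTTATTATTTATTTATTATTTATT
Nfkbia: acgttTTATTTATTgtgcttttgattgaac
Zfp36: cgactTTATTTATTgtattaagattttata
Rel: agactTTATTTATTttttttagctttcaga

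Tnf, the ligand, was high in a different cell class in each of the libraries where it was high. In microglia it stood at 649 CPM in sham (interval 638 to 660.3), 8.06 CPM in shamActD (6.79 to 9.50), 94.1 CPM at 3 dpi (89.8 to 98.5) and 6.98 CPM at 14 dpi (6.27 to 7.75). In neutrophils it stood at 97.9 CPM in sham (87.4 to 109), 14.8 CPM in shamActD (9.59 to 21.9), 732 CPM at 3 dpi (705 to 760.2) and 28.4 CPM at 14 dpi (25.4 to 31.6). So the standard sham library had its high Tnf in microglia, and the 3 dpi library had it in neutrophils. The intervals of shamActD and 14 dpi overlapped in microglia and did not in neutrophils. Border macrophages, which line the meninges and vessels, stood at 121, 8.13, 44.1 and 3.21 CPM in the same order of libraries. Injury macrophages, the cells that enter the lesion from the blood, stood at 35.1 CPM at 3 dpi and 9.04 CPM at 14 dpi, and the sham libraries had fewer than 20 of them. Monocytes, the blood cells from which those macrophages arise, stood at 32.4, 13.8, 61.5 and 11.1 CPM, with only 24 cells in shamActD.

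**Figure D1:**
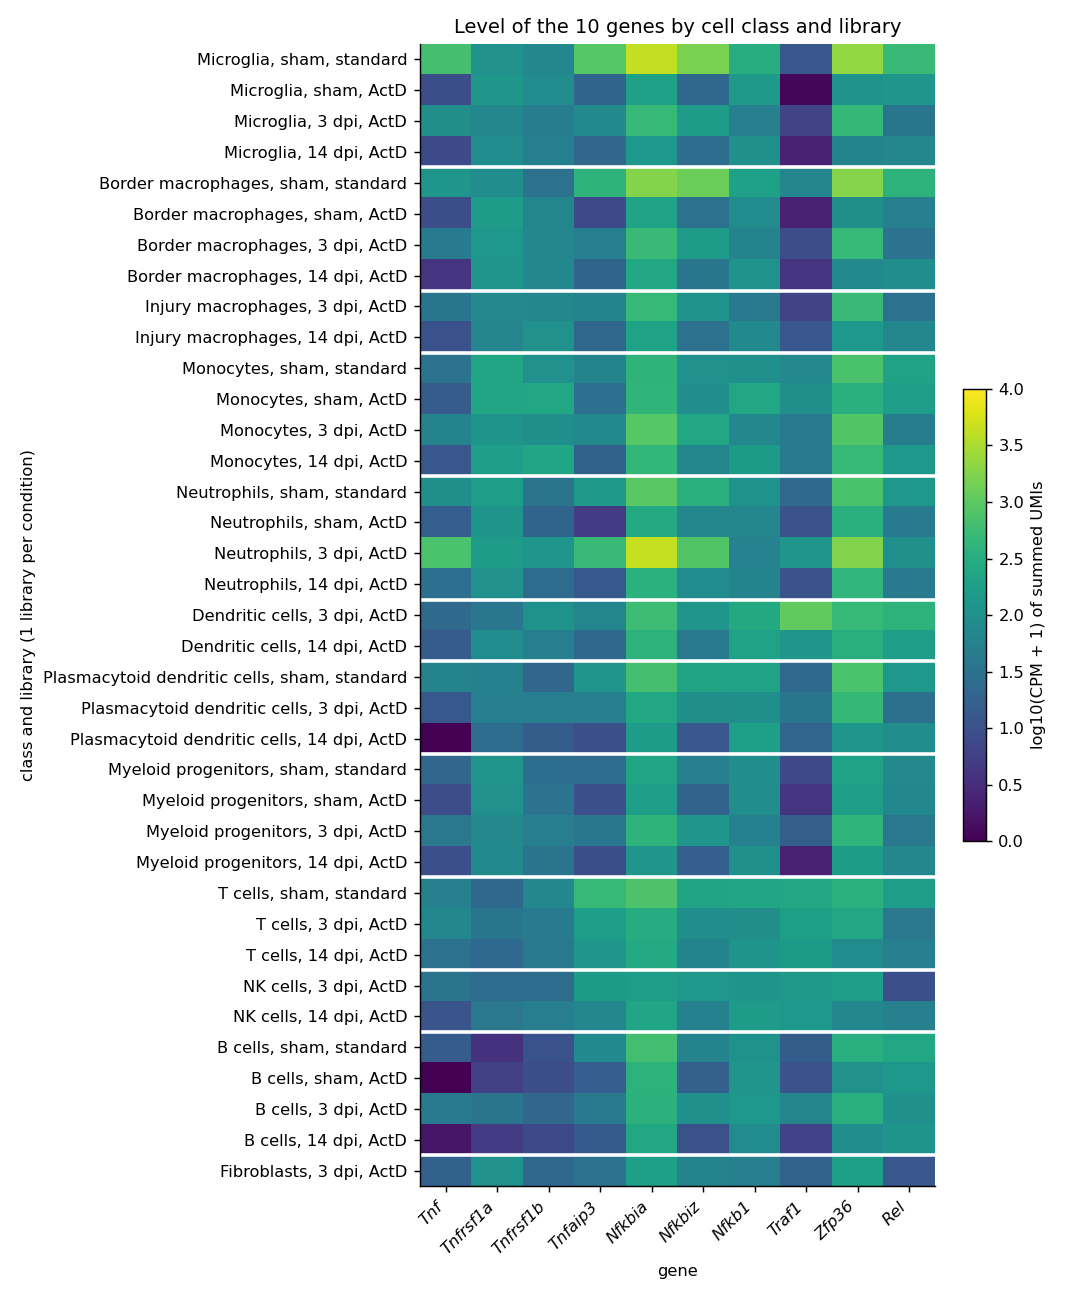
Level of the 10 genes (columns) in each cell class and library with at least 20 cells (rows), as log10 of CPM + 1 of the UMIs summed over the cells, 1 library per condition. The bright rows for Tnfaip3, Nfkbia, Nfkbiz and Zfp36 are microglia and border macrophages of the standard sham library and neutrophils at 3 dpi, while Tnfrsf1a and Tnfrsf1b change little down the rows of microglia, and Traf1 is brightest in dendritic cells at 3 dpi.

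Counted over the whole library, microglia were 53.2% of the cells kept in sham and held 88.2% of its 15283 Tnf UMIs. In shamActD microglia were 76.2% of the cells and held 60.4% of only 235 Tnf UMIs. At 3 dpi neutrophils were 16.7% of the cells and held 33.7% of 8032 Tnf UMIs, microglia held 22.7%, and injury macrophages, 37.2% of the cells, held 22.6%. The library with the most Tnf UMIs was thus the uninjured one without actinomycin D, although 3 dpi had more cells.

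Because deeper cells show a UMI more often, every cell was thinned to 1000 UMIs before cells with a Tnf UMI were counted. In microglia the thinned share was 35.0% in sham, 0.677% in shamActD, 9.21% at 3 dpi and 0.749% at 14 dpi, from unthinned shares of 77.7%, 6.64%, 56.3% and 5.63% at median depths of 7614, 9628, 17103 and 10940 UMIs. In neutrophils it was 9.79%, 2.94%, 42.5% and 3.40%, from unthinned shares of 35.3%, 13.7%, 65.7% and 16.5% at median depths of 6691, 13540, 2442 and 5991 UMIs. The neutrophils at 3 dpi were therefore the shallowest of the 4 and still had the highest share. No class of this sort can be taken with certainty to lack Tnf. The one set beside the others was a class of 47 cells at 3 dpi named fibroblasts from collagen markers, though cells that passed a CD45 sort may come from monocytes. It had a thinned share of 4.26%, an unthinned one of 31.9% at 16662 UMIs and a level of 16.4 CPM (9.91 to 25.7 for its 45 cells in cluster 21). The thinned shares of border macrophages (2.44%), monocytes (4.30%), injury macrophages (4.61%), B cells (5.34%), myeloid progenitors (5.70%) and T cells (7.10%) at 3 dpi lay within its interval (0.52% to 14.5%), while those of neutrophils lay above it. For the classes within the interval, Tnf made by the cells and free RNA cannot be told apart by these shares. The share of microglia, 9.21%, lay inside that wide interval too. Its own interval (7.45% to 11.2%) lay above that of all injury macrophages (3.89% to 5.41%) and met that of their cluster 6 (5.74% to 8.82%). Whether free RNA had a part in the share of microglia was not tested. The fibroblast class was not the lowest at 3 dpi. The 66 dendritic cells of cluster 23 had a thinned share of 0% (0% to 5.44%) at 21.2 CPM. Plasmacytoid dendritic cells had 3.85% at 11.6 CPM, and NK cells of cluster 17 had 3.03% at 37.2 CPM. In sham, myeloid progenitors at 31605 UMIs had 0.889% and B cells 1.66%, far under the 35.0% of microglia.

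**Figure D2:**
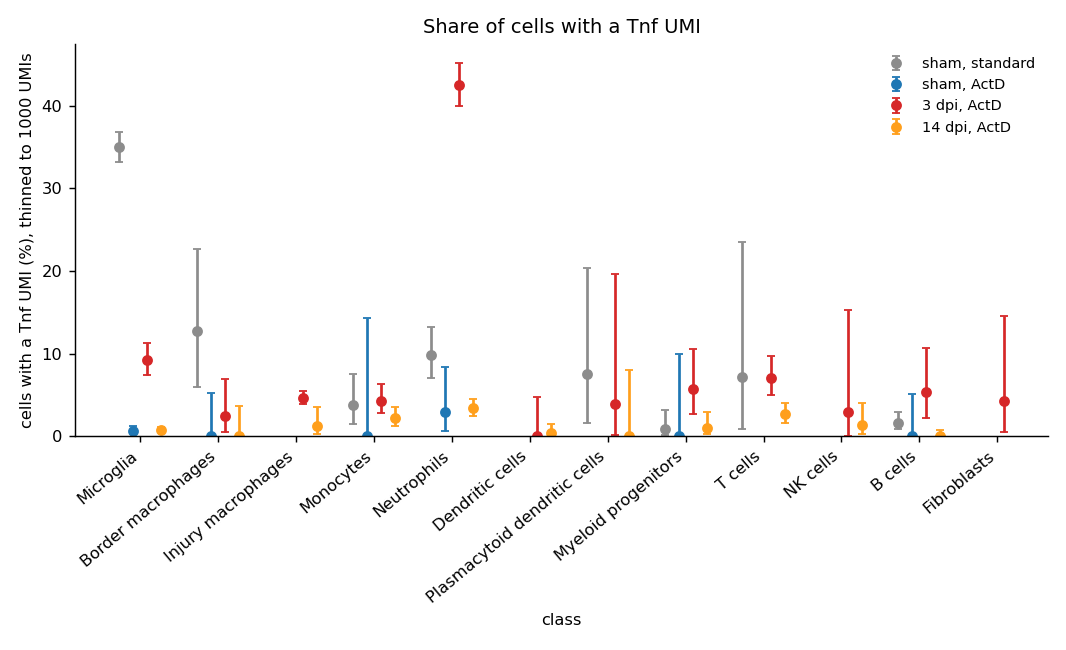
Share of cells with a Tnf UMI (%) after thinning to 1000 UMIs, by class and library, with exact 95% binomial intervals that cover counting error only. Microglia of the standard sham library (35.0%) and neutrophils at 3 dpi (42.5%) stand above all other points, and most classes at 3 dpi lie between 0% and 9.21%.

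Within the clusters of each class the libraries could be compared again. Microglia lay mainly in cluster 0 (led by P2ry12 and Crybb1), cluster 1 (led by Apoc1 and Lpl) and cluster 4 (led by Il1a and Gpr84), and at 3 dpi 41.2% of them lay in cluster 10, which was led by genes of cell division. Cluster 0 held 68.0% of the microglia of shamActD and 24.1% of those of 14 dpi, and cluster 1 held 4.80% and 59.2%. In clusters 0, 1 and 4 Tnf was at 634, 927 and 597 CPM in sham, at 5.09, 19.3 and 7.94 CPM in shamActD, at 66.8, 83.1 and 99.6 CPM at 3 dpi, and at 2.85, 7.20 and 9.39 CPM at 14 dpi. Over these clusters the ranges of sham and of 3 dpi met no other library's range, while those of shamActD and 14 dpi overlapped. Within cluster 1 Tnf was lower at 14 dpi (6.34 to 8.14 CPM) than in shamActD (12.1 to 29.3 CPM, from 22 UMIs) beyond counting error. The intervals of these 2 libraries overlapped within clusters 0 and 4, so the class ratio of the 2 libraries joins clusters of different levels in different shares. Neutrophils of 3 dpi lay almost all (97.9%) in cluster 2, with Cxcr2 and Il1r2 among its leading genes, whereas 60.8% of those of shamActD lay in cluster 11, led by Ly6g and by Mmp8 and Ltf of granule-bearing neutrophils. In cluster 2 Tnf was at 168 CPM in sham, 776 CPM at 3 dpi and 55.1 CPM at 14 dpi, and the 40 cells of shamActD had no UMI of it, where 3 UMIs would be 8.62 CPM. In cluster 11 it was at 70.0, 18.7, 110.0 and 22.2 CPM in sham, shamActD, 3 dpi and 14 dpi. Tnf was thus highest at 3 dpi in both clusters, beyond counting error in cluster 2 but not in cluster 11, where the 28 cells of 3 dpi gave an interval of 69.7 to 165 CPM against 59.7 to 81.7 CPM in sham.

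Some Tnf lay in clusters that stayed unnamed. Clusters 13 and 14 were unnamed for their low depth. Cluster 13 at 3 dpi, 618 cells with a median of 1542 UMIs and with Acod1, Il1rn and Cxcl2 among its leading genes, had Tnf at 629.9 CPM and a thinned share of 37.2%, and its 39 cells at 14 dpi had 678 CPM from 64 UMIs. Cluster 14 in sham, 281 cells with a median of 1618 UMIs, had 648 CPM, and its 62 cells in shamActD had 41.7 CPM from 4 UMIs. Cluster 25 in sham, 78 cells with a median of 10922 UMIs, was not shallow. It stayed unnamed because it held microglia markers but was led by immunoglobulin genes such as Jchain and Igkc, and it had 566 CPM from 498 UMIs, the largest part of the 1110 Tnf UMIs of unnamed cells in sham.

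In microglia the receptors moved least of the 10 genes in sham and at 3 dpi. Tnfrsf1a, the receptor found on most cells, stood in microglia at 105 CPM in sham, 131 CPM in shamActD, 68.8 CPM at 3 dpi and 88.0 CPM at 14 dpi. Tnfrsf1b, the receptor that is more restricted to immune and endothelial cells, stood there at 72.2, 83.1, 47.5 and 52.2 CPM. All of these lay within a 2-fold range of shamActD, and in CPM shamActD was the highest of the 4 for both receptors. In neutrophils Tnfrsf1a was at 175, 117, 159.7 and 105 CPM, again within 2-fold. Tnfrsf1b in neutrophils was at 33.7 CPM in sham, 18.4 CPM in shamActD, 126 CPM at 3 dpi and 24.9 CPM at 14 dpi, a ratio at 3 dpi over shamActD of 6.84 (4.75 to 10.2). No other receptor value in microglia or neutrophils lay 2-fold above shamActD. Monocytes had the highest levels of both receptors at 14 dpi among classes with at least 20 cells there, 176 CPM for Tnfrsf1a (165 to 188) and 235 CPM for Tnfrsf1b (222 to 248), and B cells the lowest, 3.95 and 6.92 CPM. The interval of the monocytes met that of no other class there for either gene. At 3 dpi monocytes stood at 116 CPM for Tnfrsf1a and 96.8 CPM for Tnfrsf1b, under their 14 dpi levels for both.

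Traf1, which joins the receptor complex through its partner Traf2 and is itself induced by NF-kB, was a gene of other classes. Dendritic cells at 3 dpi had 1065 CPM (979 to 1158) and a thinned share of 63.2%, and at 14 dpi 131 CPM and 11.5%. Most of the 3 dpi value came from cluster 23, whose 66 cells stood at 1289.8 CPM and whose 39 cells at 14 dpi stood at 706 CPM. The class level at 14 dpi also reflects 412 cells of cluster 8, at 91.7 CPM, while the 505 cells of that cluster at 3 dpi stayed unnamed and stood at 182 CPM. Thus cluster 23 differed less between the 2 times than the class as a whole. T cells held 185 CPM at 3 dpi and 153 CPM at 14 dpi, and NK cells 142 and 134 CPM. In microglia Traf1 was at 11.2, 0.170, 5.64 and 1.30 CPM in sham, shamActD, 3 dpi and 14 dpi, from 232, 3, 109 and 66 UMIs. Its ratios in microglia are wide for that reason, 65.6 (22.2 to 320.5) for sham and 33.1 (11.0 to 163) for 3 dpi over shamActD. The thinned shares of microglia, 0% to 1.12%, were near the level of 1 UMI and are not read as a change. Neutrophils stood at 22.2, 9.48, 129 and 9.74 CPM.

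The subunits stood on opposite sides of shamActD in microglia of standard sham and in microglia after injury. Rel, the subunit c-Rel of activated lymphoid and myeloid cells, stood in microglia at 491 CPM in sham (481 to 501), 124 CPM in shamActD (119 to 129), 34.3 CPM at 3 dpi (31.7 to 37.0) and 69.5 CPM at 14 dpi (67.2 to 71.8). Nfkb1, which encodes the precursor of p50, stood at 312, 147, 54.5 and 100 CPM. Both were thus above shamActD in sham and below it at both times after injury, with no overlap of intervals. The 3 large clusters showed the same order of libraries for Rel, at 433 to 516 CPM in sham, 91.3 to 132 CPM in shamActD, 28.1 to 50.1 CPM at 3 dpi and 60.1 to 104 CPM at 14 dpi. For Nfkb1 the same clusters stood at 249 to 411, 141 to 154, 49.2 to 73.1 and 90.3 to 135 CPM. In neutrophils Rel was at 133 CPM in sham, 45.6 CPM in shamActD, 101 CPM at 3 dpi and 45.5 CPM at 14 dpi, and Nfkb1 at 107, 69.9, 59.0 and 59.5 CPM. Neutrophils at 3 dpi therefore had more Rel in CPM than in shamActD where microglia had less, and their Nfkb1 differed from shamActD at 3 dpi by no more than its counting error, with a ratio of 0.844 (0.671 to 1.06).

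The inhibitors, Nfkbiz and the decay factor Zfp36 had high levels in the same classes and libraries as Tnf. Nfkbia, which holds NF-kB in the cytoplasm, stood in microglia at 4260.0 CPM in sham, 190.2 CPM in shamActD, 484 CPM at 3 dpi and 133 CPM at 14 dpi, and in neutrophils at 964, 279.7, 4424 and 353 CPM. Its thinned shares were 88.8%, 17.6%, 32.9% and 13.1% in microglia and 41.5%, 25.5%, 89.9% and 31.9% in neutrophils. Nearly all thinned microglia of standard sham and nearly all thinned neutrophils of 3 dpi thus had a UMI of it. The fibroblast class at 3 dpi had 25.5% and 189 CPM, but Nfkbia is made by most cells and no class is taken to lack it.

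Nfkbiz, a nuclear IkB protein that NF-kB needs for a later wave of genes, stood in microglia at 1563, 20.9, 160.4 and 25.8 CPM in sham, shamActD, 3 dpi and 14 dpi, and in neutrophils at 324, 67.6, 808 and 88.0 CPM. Tnfaip3, which encodes the ubiquitin-editing enzyme A20, stood in microglia at 869, 18.3, 77.4 and 19.7 CPM and in neutrophils at 143, 4.15, 496 and 11.7 CPM. Zfp36 stood in microglia at 2280.4, 109, 467 and 59.8 CPM and in neutrophils at 699, 344, 1737 and 429 CPM. For each of these 3 genes the order in microglia put sham first and 3 dpi next, and in neutrophils it put 3 dpi first and sham next. At 14 dpi Zfp36 in microglia was below shamActD in CPM, at a ratio of 0.550 (0.520 to 0.583). So was Nfkbia, at 0.701 (0.673 to 0.731), whereas Nfkbiz was slightly above it, at 1.23 (1.10 to 1.39).

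**Figure D3:**
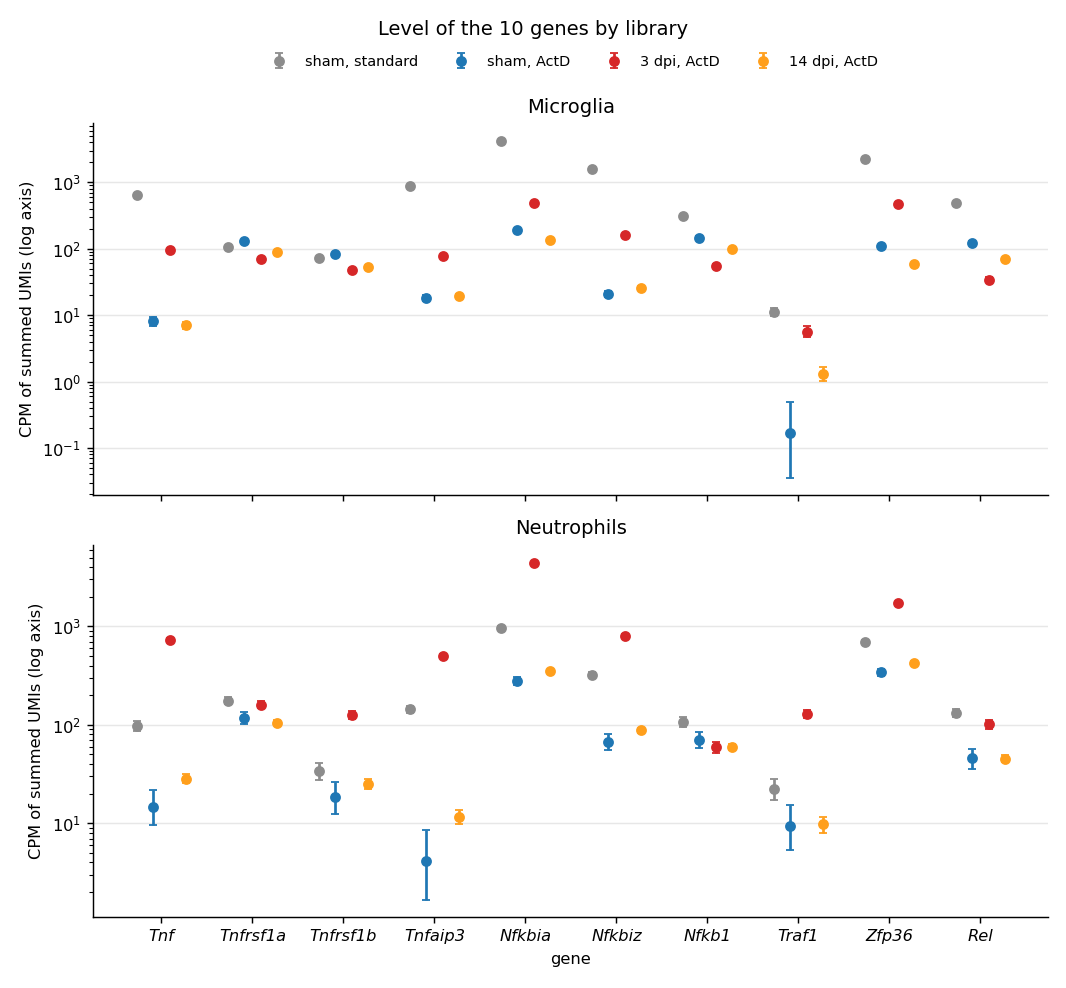
Level of the 10 genes in microglia (top) and neutrophils (bottom), in CPM on a log axis, 1 point per library with its exact 95% Poisson interval for counting error. In microglia the standard sham library lies above the 3 others for Tnf, Tnfaip3, Nfkbia, Nfkbiz, Traf1, Zfp36, Nfkb1 and Rel, and in neutrophils the 3 dpi library lies highest for Tnf, Tnfrsf1b, Tnfaip3, Nfkbia, Nfkbiz, Traf1 and Zfp36.

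The comparisons all share shamActD as the denominator, so they are given side by side and their likeness is not read as a result. A gene was counted as higher or lower where its log2 ratio of CPM was at least 1 or at most -1, with 0.5 UMIs added to each sum, among genes whose UMIs in both libraries came to 20 or more. The median log2 ratio over all genes tested was not 0, at -0.55, -0.52 and -0.55 in microglia for sham, 3 dpi and 14 dpi over shamActD, and 0.04, 1.04 and 0.14 in neutrophils. In macrophages, border and injury macrophages together, it was -0.31, -0.62 and -0.28, and in B cells -0.05, -0.30 and 0.02. Ratios relative to these medians are given for some genes and not for all. In microglia at 14 dpi they changed sign for Nfkbia, from -0.51 to 0.04, and for Tnf, from -0.21 to 0.34. In microglia of sham they changed sign for Tnfrsf1a, from -0.32 to 0.23, and for Tnfrsf1b, from -0.20 to 0.35. The levels below shamActD of these genes there thus hold for CPM and not relative to the bulk of genes.

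In microglia 8 of the 10 genes were at least 2-fold higher in sham than in shamActD, where 6.89% of 12113 genes were. The log2 ratios were 6.33 for Tnf, 6.22 for Nfkbiz, 5.82 for Traf1, 5.57 for Tnfaip3, 4.48 for Nfkbia, 4.39 for Zfp36, 1.99 for Rel and 1.08 for Nfkb1, and the receptors were the 2 not called. None of the 10 was at least 2-fold lower, against 23.3%. At 3 dpi over shamActD 6 of 10 were at least 2-fold higher, against 14.1% of 12286 genes, and 2 were at least 2-fold lower, against 32.4%. The 6 were Traf1 (4.83), Tnf (3.54), Nfkbiz (2.94), Zfp36 (2.10), Tnfaip3 (2.08) and Nfkbia (1.35), and the 2 were Rel (-1.85) and Nfkb1 (-1.43). Relative to the median of all genes these 2 were at -1.33 and -0.91, so Nfkb1 was then inside the 2-fold limit. At 14 dpi over shamActD 1 of 10, Traf1 (2.72, from 66 and 3 UMIs), was at least 2-fold higher, against 6.02% of 12535 genes. Tnf at 14 dpi was at 0.866 of its shamActD level (0.711 to 1.06). No gene of the 10 was at least 2-fold lower there, against 20.5%. Relative to the median of all genes Rel stood at -0.28 and Nfkb1 at -0.0017 at 14 dpi, so their lower CPM there was close to that of the bulk of genes. For each of the 8 genes that were higher in sham than in shamActD, the level in sham also lay above that at 3 dpi with no overlap of intervals.

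In neutrophils 7 of 10 were at least 2-fold higher in sham, against 16.2% of 7410 genes, and none was at least 2-fold lower, against 8.08%. Tnfaip3 (5.01, from 464 and 7 UMIs), Tnf (2.70, from 317 and 25 UMIs) and Nfkbiz (2.26) led. The ratios of Tnfaip3 and Tnf at 3 dpi rest on the same 7 and 25 UMIs of shamActD. At 3 dpi 8 of 10 were, but so were 51.4% of 9005 genes, and the median of all genes was 1.04. None was at least 2-fold lower, against 7.17%. Relative to that median Tnfaip3 stood at 5.76, Tnf at 4.56, Nfkbia at 2.94, Traf1 at 2.69, Nfkbiz at 2.53, Tnfrsf1b at 1.71, Zfp36 at 1.29, Rel at 0.10, Tnfrsf1a at -0.59 and Nfkb1 at -1.29. Rel was therefore close to the bulk of genes and Nfkb1 below it. The summed level of the 12 neutrophil markers was 414627 CPM in shamActD and 62334 CPM at 3 dpi, so other genes took a larger part of the UMIs at 3 dpi, and the part of this in the ratios was not tested. Injury macrophage markers in neutrophils summed to 526 CPM in shamActD, 2409.8 CPM in sham and 3301 CPM at 3 dpi. The part of free RNA from other cells in the levels of the 10 genes was not tested. At 14 dpi 1 of 10, Tnfaip3 (1.40, from 139 and 7 UMIs), was at least 2-fold higher, against 19.3% of 9485 genes, and none lower, against 4.96%. With the mean over cells of each cell's own CPM in place of the CPM of summed UMIs, 5 of 10 were at least 2-fold higher at 14 dpi, Tnf (1.83), Tnfaip3 (1.48), Traf1 (1.35), Nfkbia (1.16) and Tnfrsf1b (1.10). The share of all genes was not computed for that scaling, so this count has no background and is not read as a result.

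Because most neutrophils of shamActD lay in another cluster than those of 3 dpi, the comparison was also made within cluster 2 alone, an alternative chosen after seeing the data that rests on 40 cells of shamActD. There 6 of 10 genes were at least 2-fold higher in sham, against 24.6% of 4540 genes, and 7 of 10 at 3 dpi, against 52.1% of 8574 genes. At 14 dpi 7 of 10 were, against 15.0% of 5536 genes, so the count at 14 dpi depended on which neutrophils were compared. Of the 7, Tnf had 113 UMIs at 14 dpi and none in shamActD, and was at least 6.40-fold higher when 3 UMIs are taken as the limit over the 40 cells. The others were Tnfaip3 (1.85, from 74 and 3 UMIs), Nfkbia (1.70), Traf1 (1.56, from 95 and 5 UMIs), Tnfrsf1b (1.35), Zfp36 (1.24) and Nfkbiz (1.04). Rel within cluster 2 was at 0.72 for 3 dpi over shamActD, which is -0.37 relative to the median of all genes there.

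**Figure D4:**
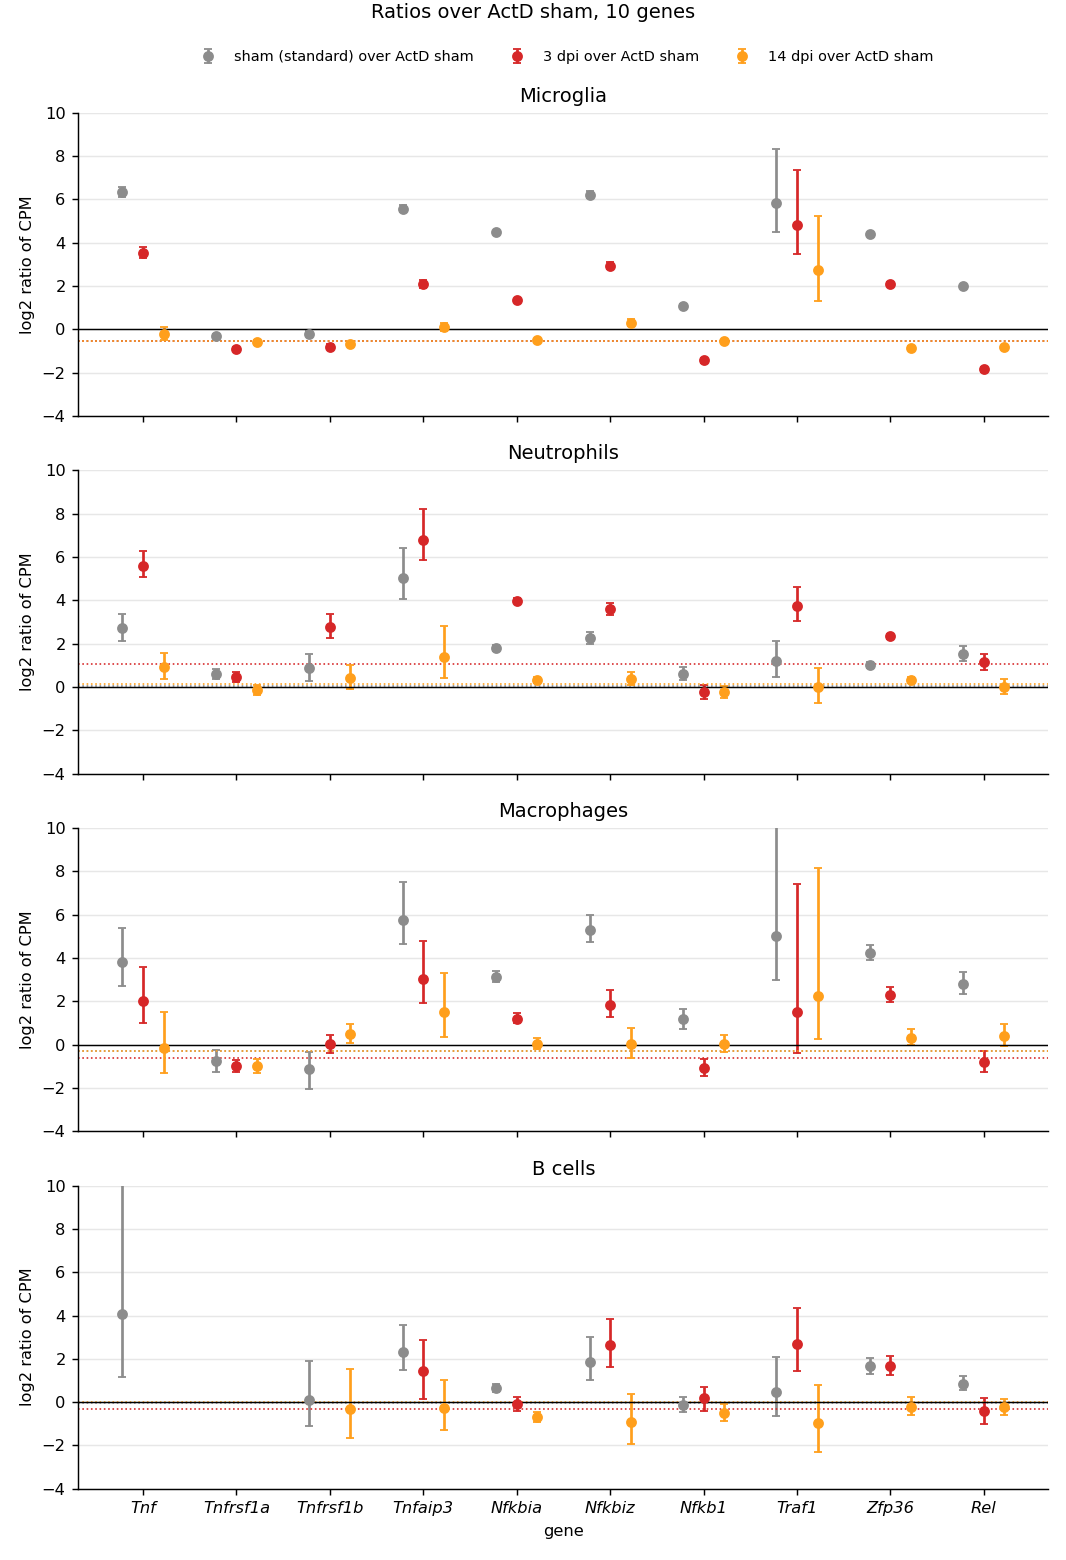
Log2 ratio of CPM over shamActD for the 10 genes in microglia, neutrophils, macrophages and B cells, for sham (dissociation), 3 dpi and 14 dpi (injury), with exact 95% intervals for counting error and dotted lines at the median of all genes in each comparison. The axis ends at 10, which cuts the upper intervals of Traf1 in macrophages and of Tnf in B cells (no upper limit), and ratios under 20 UMIs are not drawn. In microglia the grey points of sham lie above the red points of 3 dpi for the 8 genes that were higher in sham, and in neutrophils the red points lie above the grey ones for Tnf, Tnfrsf1b, Tnfaip3, Nfkbia, Nfkbiz, Traf1 and Zfp36.

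Macrophages of the sham libraries were all border macrophages, 71 cells in sham and 68 in shamActD. Between these 8 of 10 genes were at least 2-fold higher in sham, against 6.33% of 6604 genes, with Traf1 (5.01) from 34 UMIs and 1. At least 2-fold lower was 1, Tnfrsf1b (-1.13, from 16 and 50 UMIs), against 14.8%. B cell markers in these cells summed to 2126 CPM in sham against 187 CPM in shamActD, and border markers to 7358 against 12094 CPM. The part of this in the ratios was not tested. Nfkbia stood at 1825 CPM in sham and 209.9 CPM in shamActD, Zfp36 at 1882 and 98.9 CPM, and Nfkbiz at 1250.3 and 31.2 CPM. At 3 dpi 3059 of 3182 macrophages were injury macrophages, so the cells set against shamActD were largely of another kind. There 6 of 10 were at least 2-fold higher, against 10.4% of 12055 genes, and 1, Nfkb1 (-1.08), at least 2-fold lower, against 36.9%. Relative to the median of all genes that value of Nfkb1 was -0.46. Among the 6 was Traf1 (1.51, from 310 UMIs and 1), whose interval of -0.39 to 7.40 reached 0. Tnf (2.01) is among the 6, at 35.4 CPM and a thinned share of 4.53%. That share lay within the wide interval of the fibroblast class, so by shares Tnf made by these cells and free RNA cannot be told apart. In CPM, cluster 6 of the injury macrophages (53.1 to 60.8) lay above fibroblast cluster 21 (9.91 to 25.7), and their cluster 3 (24.7 to 28.0) met it. The part of free RNA in the ratio was not tested. At 14 dpi 249 of 348 macrophages were injury macrophages, so here too cells of another kind were set against shamActD. Microglia markers in the 348 summed to 4647 CPM, beside 3613 CPM of injury and 2066 CPM of border markers, and their part was not tested. Of the 10 genes 2, Tnfaip3 (1.49, from 91 and 5 UMIs) and Traf1 (2.26, from 42 UMIs and 1), were at least 2-fold higher at 14 dpi, against 7.53% of 9523 genes. With looser or stricter cell filters or with a minimum of 100 UMIs the 2 became 0. Within border macrophages alone 5 of 9 genes were at least 2-fold higher at 3 dpi, against 10.4% of 8262 genes, namely Tnf, Tnfaip3, Nfkbia, Nfkbiz and Zfp36, with log2 ratios of 1.31 to 2.82. The same limit of the shares holds for Tnf there, whose thinned share was 2.44% at 44.1 CPM. At 14 dpi 1 of 8, Tnfaip3 (1.33, from 17 and 5 UMIs), was, against 4.36% of 7428 genes. The 4 feedback genes in border macrophages at 3 dpi thus stood above shamActD as they did in microglia, at 52.5 CPM for Tnfaip3, 522 CPM for Nfkbia, 163 CPM for Nfkbiz and 470.0 CPM for Zfp36. Injury macrophage markers in these border macrophages summed to 11623 CPM at 3 dpi, beside 12060 CPM of border markers, against 1078 CPM in shamActD. The lists share Ms4a7. Their microglia markers summed to 6607 CPM at 14 dpi, beside 5583 CPM of border markers, against 3544 CPM in shamActD. The part of either in the levels was not tested.

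In B cells 4 of 9 genes were at least 2-fold higher in sham than in shamActD, against 8.40% of 9502 genes. They were Tnfaip3 (2.34), Nfkbiz (1.87), Zfp36 (1.65) and Tnf, which had 64 UMIs in sham and none in shamActD and was at least 2.80-fold higher when 3 UMIs are taken as the limit over the 71 cells. Nfkbia in B cells was at 608 CPM in sham and 389 CPM in shamActD, a ratio of 1.56 (1.37 to 1.79). At 3 dpi 4 of 7 were at least 2-fold higher, against 7.84% of 5730 genes, namely Traf1 (2.68, from 23 and 6 UMIs), Nfkbiz (2.62), Zfp36 (1.68) and Tnfaip3 (1.43, from 14 and 9 UMIs). At 14 dpi 0 of 8 were, against 7.08% of 8943 genes. The 131 B cells at 3 dpi also showed the injury macrophage markers at a summed 2249 CPM against 9.65 CPM in shamActD, and the part of this in their levels was not tested. Nfkb1 and Rel, which B cells use in antigen receptor signalling, stood at 109.7 and 245 CPM in sham, 119 and 135 CPM in shamActD, 134 and 103 CPM at 3 dpi and 84.3 and 115 CPM at 14 dpi.

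Other lists moved with the same libraries. The 24 immediate early genes, such as Fos and Egr1, which respond to handling within minutes, had a summed level in microglia of 50178 CPM in sham, 1738 CPM in shamActD, 5849 CPM at 3 dpi and 996 CPM at 14 dpi. In neutrophils it was 10852, 2711, 20652 and 4129.6 CPM. The order of the libraries was the same as for Tnf in both classes, with the intervals of Tnf in shamActD and 14 dpi overlapping in microglia. Microglia at 3 dpi also had injury macrophage markers at a summed 4651 CPM, against 46.8 CPM in shamActD, with all 10 detected, and their own microglia markers at 5605 against 28059 CPM. Whether immediate early genes or macrophage RNA had a part in the levels of the 10 genes was not tested.

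Genes around the 10 in the pathway were counted from lists by role. Beside every list stand the shares of all genes that were at least 2-fold higher for sham, 3 dpi and 14 dpi. They were 6.89%, 14.1% and 6.02% in microglia and 16.2%, 51.4% and 19.3% in neutrophils. The 25 signalling genes mostly carry the signal from receptor to NF-kB, such as Ripk1, Ikbkb and Rela, while Adam17 and Rhbdf2 act in the release of TNF. Of the 25, 4 were at least 2-fold higher and 1 lower in microglia of sham over shamActD, with a median log2 ratio of -0.18 beside -0.55 for all genes. The largest were Map3k8 (2.75), Birc3 (2.57), which encodes a ubiquitin ligase of the receptor complex, and Relb (1.50), and the smallest were Map3k7 (-0.83) and Tradd (-1.21). At 3 dpi none was higher and 8 were lower, beside 32.4% of all genes lower, with a median of -0.74 beside -0.52, from Rhbdf2 (0.59), Tab1 (0.31) and Map3k8 (0.09) to Birc2 (-1.73) and Traf5 (-2.33). At 14 dpi none was higher and 4 were lower, beside 20.5% of all genes, with a median of -0.59 beside -0.55, from Rhbdf2 (0.34), Nfkb2 (0.21) and Relb (0.19) to Tab2 (-1.13) and Traf5 (-1.42). The shares of the list that were lower were thus no larger than those of all genes.

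In neutrophils 3 of 23 signal genes were higher and 1 lower in sham, led by Nfkb2 (2.81), Map3k8 (1.66) and Relb (1.50), with Rnf31 (-0.91) and Ikbkg (-1.09) the smallest. At 3 dpi 14 of 25 were higher, at a median of 1.03 that equals the 1.04 of all genes, from Map3k8 (3.19), Nfkb2 (3.02) and Map3k14 (2.60) to Rnf31 (-0.42) and Ripk1 (-0.53). At 14 dpi 2 of 25 were higher and 1 lower, Nfkb2 (1.15), Traf5 (1.05) and Ikbkg (-1.16), with Ikbkb at 0.31 and Chuk at -0.86. So the list as a whole stood with all genes in neutrophils at 3 dpi.

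Of 20 further genes in a feedback list, not all of which act on NF-kB or its kinases, 11 were higher and 1 lower in microglia of sham, at a median of 1.62. Dusp1 (7.54), a phosphatase for MAP kinases, Ier3 (6.58) and Dusp2 (6.45) led, and Cyld (-0.92) and Tnfaip8l2 (-1.58) were the smallest. At 3 dpi 6 were higher and 5 lower, at a median of 0.01, from Dusp1 (5.49), Ier3 (5.05) and Tnip3 (3.18, from 64 and 6 UMIs) to Zc3h12c (-1.83) and Zfp36l2 (-1.93), a relative of Zfp36. At 14 dpi 3 were higher and 2 lower, from Tnip3 (3.27), Dusp2 (1.33) and Ier3 (1.26) to Socs3 (-1.23) and Zfp36l2 (-1.34). Among all genes in microglia 6.89%, 14.1% and 6.02% were higher in sham, at 3 dpi and at 14 dpi. The shares lower were 23.3%, 32.4% and 20.5%, and the medians -0.55, -0.52 and -0.55. In neutrophils 7 of 18 were higher and 2 lower in sham, 12 and 0 at 3 dpi, and 3 and 1 at 14 dpi, where 16.2%, 51.4% and 19.3% of all genes were higher. The medians of the list were 0.59, 1.71 and 0.13 beside 0.04, 1.04 and 0.14 for all genes, so at 14 dpi the list stood with all genes. Dusp2 (4.39 and 6.46) was the largest in neutrophils for sham and for 3 dpi, followed by Zc3h12a (2.66) and Nfkbid (2.46) in sham and by Ier3 (5.31) and Nfkbid (4.16) at 3 dpi. The smallest were Tnfaip8l2 (-1.04) and Bcl3 (-1.14) in sham and Cyld (-0.37) and Tnfaip8l2 (-0.51) at 3 dpi. At 14 dpi the range ran from Ier3 (1.39), Dusp2 (1.34) and Nfkbid (1.07) to Bcl3 (-0.58) and Tnip2 (-1.10). Dusp1 and Ier3 also stand in the list of immediate early genes, and so does Gadd45b among the targets.

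Of 25 genes known to be switched on by NF-kB, 20 were higher and none lower in microglia of sham, at a median of 3.37. Cxcl2 (10.69, from 8759 and 4 UMIs), a chemokine for neutrophils, Gadd45b (9.76) and Ptgs2 (9.33, from 1139 UMIs and 1) led, and Bcl2l1 (0.03) and Il6 (-0.88) were the smallest. At 3 dpi 14 were higher and 4 lower, at a median of 2.19, with Cxcl2 (10.43), Cxcl1 (316 UMIs and 0, at least 95.9-fold higher) and Ptgs2 (8.76) at the top and Il1a (-1.59) and Il6 (-4.40) at the bottom. At 14 dpi 12 of 23 were higher and 2 lower, at a median of 1.06, from Cxcl2 (4.79), Ptgs2 (3.46, from 47 UMIs and 1) and Olr1 (3.18) to Il1a (-1.83) and Il6 (-4.12). Il6 was therefore lower at both times after injury than in shamActD, where it stood at 15.8 CPM from 279 UMIs. Among all genes in microglia 6.89%, 14.1% and 6.02% were higher in sham, at 3 dpi and at 14 dpi, at medians of -0.55, -0.52 and -0.55. The shares lower were 23.3%, 32.4% and 20.5%.

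In neutrophils 14 of 19 targets were higher in sham, 21 of 22 at 3 dpi and 12 of 21 at 14 dpi, none was lower in any of these, and the medians were 2.82, 5.08 and 1.11. Ccl3 (7.15, 8.37 and 4.39), which attracts leukocytes, was among the 3 largest in each. The others were Cd83 (6.42) and Il1a (5.38) in sham, Cxcl1 (427 UMIs and 0, at least 65.0-fold higher) and Ccl2 (7.33, from 880 and 2 UMIs) at 3 dpi, and Ccl5 (3.26, from 236 and 3 UMIs) and Il1b (2.66) at 14 dpi. The smallest were Tlr2 (0.52) and Irf1 (0.19) in sham, Irf1 (1.27) and Tlr2 (0.73) at 3 dpi, and Il1a (-0.63, from 20 and 4 UMIs) and Irf1 (-0.70) at 14 dpi. The target median of 2.82 in sham stands beside 0.04 for all genes, that of 5.08 at 3 dpi beside 1.04, and that of 1.11 at 14 dpi beside 0.14. The target counts stand beside 16.2%, 51.4% and 19.3% of all genes higher in the same order.

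Of 25 other ligands and receptors of the TNF superfamily, 15 were tested in microglia and 12 or 13 in neutrophils. In microglia 4 were higher and 4 lower in sham, from Tnfsf9 (5.56), the ligand 4-1BBL, Tnfsf14 (3.73, from 23 UMIs and 1) and Tnfrsf12a (2.72) to Tnfrsf14 (-1.65) and Cd27 (-2.61). At 3 dpi 3 were higher and 7 lower, from Tnfsf14 (3.95, from 25 UMIs and 1), Tnfsf9 (2.31) and Fas (1.99) to Tnfsf13b (-2.37) and Tnfrsf14 (-3.18). At 14 dpi 1, Fas (1.08), was higher and 5 were lower, with Tnfrsf12a at 0.36, Tnfsf9 at 0.16, Tnfrsf13b at -1.37 and Cd27 at -1.73. The medians in microglia were -0.35, -0.83 and -0.68 beside -0.55, -0.52 and -0.55 for all genes, of which 23.3%, 32.4% and 20.5% were lower. In neutrophils 4 of 12 were higher in sham, 7 of 13 at 3 dpi with 2 lower, and 1 of 13 at 14 dpi with 1 lower, where 16.2%, 51.4% and 19.3% of all genes were higher. The medians of the list were 0.40, 1.06 and -0.20 beside 0.04, 1.04 and 0.14, so at 3 dpi it stood with all genes. Tnfsf9 was the largest there at 3 dpi (6.76, from 355 UMIs and 1) and in sham (4.10, from 49 UMIs and 1). It was followed by Tnfsf12 and Tnfrsf12a, at 2.35 and 2.18 in sham and 3.69 and 1.94 at 3 dpi, each from 2 or 3 UMIs in shamActD. The smallest were Tnfrsf18 (-0.87) and Tnfrsf21 (-0.99) in sham, Tnfrsf21 (-1.08) and Tnfsf13b (-1.44) at 3 dpi, and Tnfrsf11a (-0.61) and Tnfrsf14 (-1.52) at 14 dpi, where Tnfsf12 (1.20), Tnfsf13b (0.49) and Fas (0.25) were the largest.

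All 24 immediate early genes were at least 2-fold higher in microglia of sham, at a median log2 ratio of 5.78, from Gadd45b (9.76), Fos (9.70) and Nr4a1 (8.72) to Rhob (1.99) and Myc (1.03). At 3 dpi 19 were higher and 2 lower, at 2.17, with Fos (7.04), Nr4a1 (6.02) and Gadd45b (5.72) at the top and Rhob (-1.17) and Myc (-1.70) at the bottom. At 14 dpi 6 were higher and 5 lower, at 0.03, from Atf3 (2.02), Egr2 (1.81) and Gadd45b (1.61) to Rhob (-1.76) and Klf2 (-1.77). Among all genes in microglia 6.89%, 14.1% and 6.02% were higher in sham, at 3 dpi and at 14 dpi. In neutrophils 22 of 23 were higher in sham and at 3 dpi and 10 of 24 at 14 dpi, none lower, with medians of 2.48, 3.28 and 0.68, the last being 0.57 with genes at 0 placed at their limit. Among all genes there 16.2%, 51.4% and 19.3% were higher, at medians of 0.04, 1.04 and 0.14. Atf3 was among the 3 largest in each (8.27, 7.85 and 3.60), followed by Egr1 (3.32) at 14 dpi. Genes with no UMI in neutrophils of shamActD were Klf4 and Hspa1a, at least 99.9-fold and 24.0-fold higher in sham, Egr2, at least 51.9-fold higher at 3 dpi, and Egr3, at least 44.3-fold higher at 3 dpi and 3.45-fold at 14 dpi. Fosl2 (1.01) and Dusp1 (0.76) were the smallest in sham, Klf6 (1.43) and Fosl2 (0.63) at 3 dpi, and Jund (0.00) and Rhob (-0.19) at 14 dpi.

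**Figure D5:**
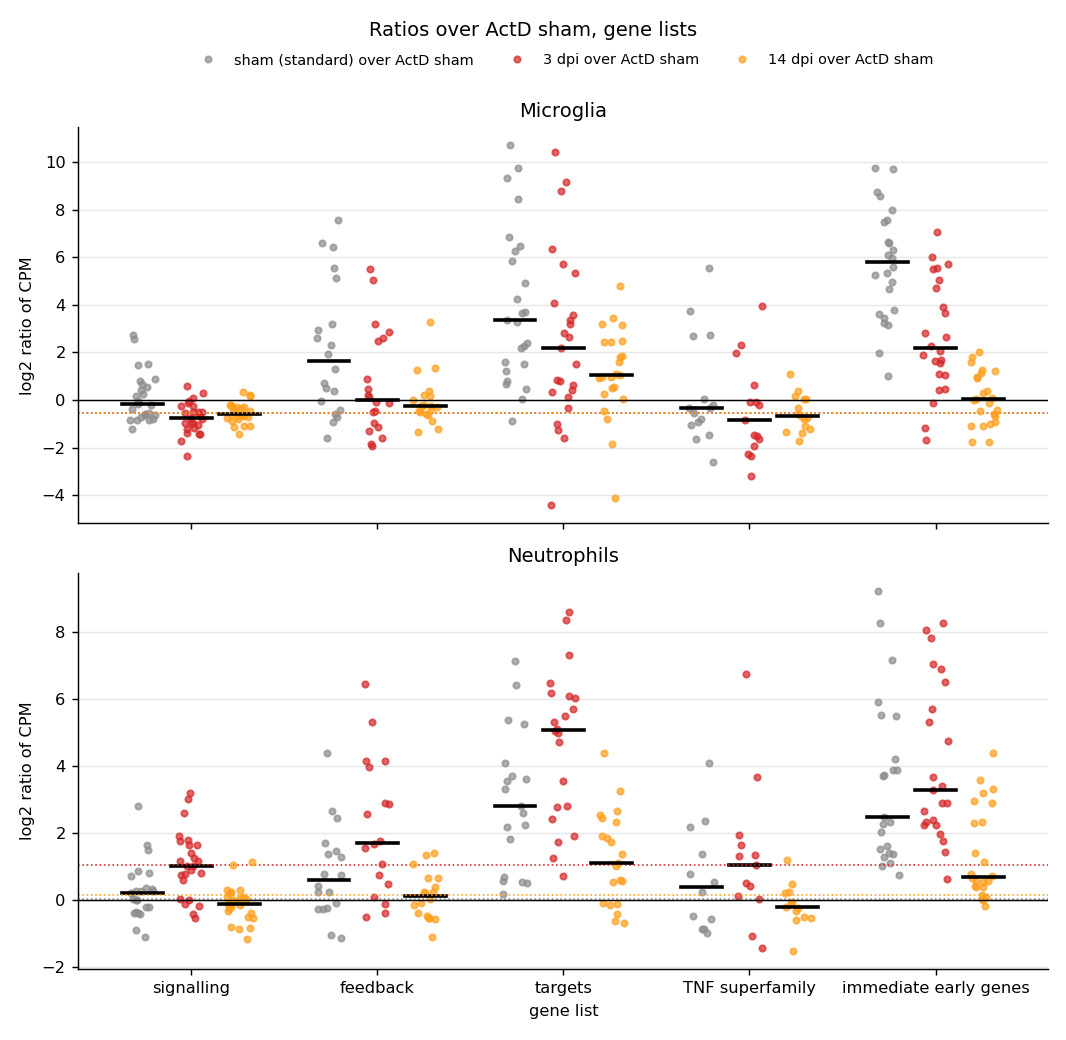
Log2 ratio of CPM over shamActD for each gene of 5 lists (points) and the median of the list (black bar), in microglia (top) and neutrophils (bottom), for sham, 3 dpi and 14 dpi, with dotted lines at the median of all genes tested. Targets and immediate early genes stand highest, in microglia most for sham (medians 3.37 and 5.78) and in neutrophils most for 3 dpi (5.08 and 3.28), and signalling genes lie near the dotted lines.

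The genes whose levels followed Tnf and Nfkbia most closely were sought over the 29 class and library units with at least 50 cells, among 6216 genes. These points share libraries and depth, so the values are descriptions. For Tnf Pearson's r of log2(CPM + 10) was highest for Nfkbiz (0.92), Ccrl2 (0.89), Socs3 (0.89), Egr1 (0.89) and Tnfaip3 (0.88). For Nfkbia it was highest for Nfkbiz (0.91), Gadd45b (0.90), Csrnp1 (0.88), Ier5 (0.88) and Zfp36 (0.87). Among the other members Tnf followed Nfkbia (0.87) and Zfp36 (0.83) and did so much less for Tnfrsf1a (0.33), Traf1 (0.28), Tnfrsf1b (0.27), Rel (0.19) and Nfkb1 (0.03).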

How the data were processed

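The authors deposited counts of UMIs per gene and barcode, 1 matrix per library. The labels name Cell Ranger and the build mm10, and the version used for counting beyond the headers of the matrices, which hold 3.0.1 for sham and 3dpi and 3.1.0 for shamActD and 14dpi, is not given in the sources used here. Each matrix holds only barcodes of at least 500 UMIs. The 10 genes and the gene lists were chosen with earlier results of these data known.

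Cells were kept from 600 genes upwards and up to 10% of UMIs from mitochondrial genes, and those in which Itgam and a lymphocyte marker were both detected were removed. Doublets were scored with Scrublet in scanpy 1.11.5 and removed at a rate of 0.8% per 1000 barcodes, where the authors' methods name another caller. The libraries were normalised to 10000 UMIs per cell, integrated by anchors over 2000 features (k.filter 200, 50 dimensions) and clustered at resolution 0.6 in Seurat 5.3.0 (R 4.3.3), without the 10 genes, the pathway lists and the immediate early genes, 126 genes in all. Clusters were named per library from marker lists, by the CPM of each marker relative to the average of the library's clusters. The list with the highest mean log2 ratio gave the name, among lists with at least 3 detected markers. A cluster without such a list, or with a median depth under 1/3 of its library's and no marker among its 10 leading genes, stayed unnamed. So did clusters led by markers of another class. Clusters 10 and 16, led by cycling and interferon genes, were named cell by cell, by the likelihood of each cell's marker UMIs. 

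UMIs were summed per class and library, scaled to CPM and given exact Poisson intervals (classes with at least 20 cells), and ratios were formed where both libraries held at least 50 cells, with exact conditional Poisson intervals. Shares of cells carry Clopper-Pearson intervals after thinning to 1000 UMIs. No edgeR test was made, since there was 1 library per condition. TMM factors from edgeR 4.0.16 served as an alternative scaling. The calculations were tested on simulated data. The search for the nonamer is given for 4 members, and the rest of it is not reported here. All 10 genes are named, and of each list the 3 genes of largest and the 2 of smallest log2 ratio in microglia and in neutrophils. Other genes are named as leading genes of clusters or, for likeness, as the 5 genes with the highest correlation. The alternatives covered the cell filters, doublets, clustering, naming, scaling and UMI minimum.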

Additional observations from a re-analysis of the deposited data

Results flagged for a closer look

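Rel moved in opposite directions in 2 classes under the same contrast. For 3dpi over shamActD its log2 ratio was -1.85 in microglia and 1.14 in neutrophils, each past 2-fold with an interval that does not reach 0. With 1 library per condition the difference between the classes was not tested. Relative to the median of all genes in each class the values were -1.33 and 0.10, and within cluster 2 the neutrophils stood at 0.72, or -0.37 relative to the median there. The opposite direction thus holds for CPM and not for neutrophils relative to the bulk of their genes.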

How the results depend on the processing

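Counts of genes at least 2-fold higher were recomputed under 11 alternatives and 1 more, chosen after seeing the data, which left out the clusters named cell by cell. Of 143 counts 133 stayed within 1.5 times the reported one, and none of 1338 log2 ratios reversed a called direction, which only ratios called at first could do. With TMM scaling 47 of 114 log2 ratios left their counting interval, and 47 did so when centred on the median of all genes. With the mean of per-cell CPM 24 of 113 did. Counts for sham ranged from 6 to 9 in neutrophils and from 6 to 8 in macrophages. Counts in microglia stayed at 8 for sham and 6 at 3 dpi under every alternative run, and their 1 at 14 dpi, Traf1, became 0 with a minimum of 100 UMIs. In neutrophils at 14 dpi the 1 became 2 with doublets kept and 5 with the mean of per-cell CPM. In macrophages at 14 dpi the 2 became 0 with the looser filter (200 genes, 20% mitochondrial UMIs), with the stricter filter (1000 genes, 5%) and at 100 UMIs, and 1 with each library clustered alone. In B cells the 4 at 3 dpi became 1 at 100 UMIs, where 4 genes were left, and the 4 in sham became 8 with the stricter filter or with co-expressing cells kept. The cause of these shifts was not tested, except that a higher minimum leaves fewer genes. Shares of all genes were not recomputed under these alternatives, so the changed counts have no background beside them. The stricter filter left under 50 B cells at 3 dpi and gave no value there. TMM added 0.60, 0.47 and 0.58 to the log2 ratios of microglia for sham, 3 dpi and 14 dpi and took 0.99 from those of neutrophils at 3 dpi. No paired analysis was possible because there was 1 library per condition, so no spread between animals stands behind any value. Depth limits Traf1 in microglia and all genes in the 68 border macrophages, 71 B cells and 102 neutrophils of shamActD.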
